A study of Mus musculus with 4 samples.

Results

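Cholesterol and fatty acid synthesis was followed through 34 genes, taken by symbol from the 22063 gene identifiers of the deposited count table. All 34 symbols were found, each beside 1 identifier, and all 34 were among the 11419 genes with enough counts to be tested. The RNA came from C22, an immortalized wild-type line grown in low serum that is labelled as derived from bronchial Club cells, the secretory cells of small airways in the mouse. The NE group (n = 2 libraries) received norepinephrine (NE), the transmitter of sympathetic nerves, at 10 µM for 3 h, and the vehicle group (n = 2) received vehicle for as long. Whether the replicates are separate cultures is not stated. Every p-value, SE and interval below therefore rests on a spread between libraries that may be technical.

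Cells make cholesterol from acetyl-CoA through mevalonate, farnesyl diphosphate and squalene, and make fatty acids from the same acetyl-CoA by carboxylation, chain assembly, elongation and desaturation. Transcription of both pathways is driven by the sterol regulatory element-binding proteins (SREBPs), encoded by Srebf1 and Srebf2. When sterols are low, the escort protein SCAP carries them from the endoplasmic reticulum to the Golgi for cleavage, and when sterols are high the INSIG proteins hold them back. In lung, these lipids are used for membranes and, in alveolar cells, for surfactant. The list leaves out some enzymes and targets of the pathways, which are not described here.

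Promoters were searched for elements through which SREBPs and their partner NF-Y, a CCAAT-binding factor, are known to act. A window from 250 bases before to 50 bases after the start was held in RefSeq (GRCm38.p6) for 27 of the 34 genes, the others being Fdps, Fdft1, Sqle, Stard4, Scd1, Scd2 and Fads1. The sterol element, searched as TCACNCCAC on both strands, matched in 1 of the 27 genes, Hmgcs1, against 1.35% of tested genes with a window and 1.44% of all genes with one. CCAAT, on either strand, matched in 22 of 27, against 44.1% of tested genes and 41.1% of all. The E-box CACGTG, which SREBPs can also bind, matched in 6 of 27, against 11.8% and 8.09%. None of the 3 motifs contains another. The 5 genes without CCAAT were Acat2, Scap, Acaca, Elovl6 and Fads2. A match describes letters, not binding. Elements spelled otherwise or lying outside the window would be missed, so a gene without a match may still have one.

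Hmgcs1 is shown as the gene that matched the sterol element as searched. Insig1 and Sc5d are shown as genes that matched both the E-box and CCAAT, and Fads2 as a gene that matched none of these motifs. Capitals mark the matches, ATTGG being CCAAT on the other strand. Positions are in GRCm38.p6 and each sequence is written on the gene's own strand. They are chr13:119690101-119690400 (plus strand) for Hmgcs1, chr5:28071162-28071461 (plus) for Insig1, chr9:42264251-42264550 (minus) for Sc5d and chr19:10101454-10101753 (minus) for Fads2.
Hmgcs1: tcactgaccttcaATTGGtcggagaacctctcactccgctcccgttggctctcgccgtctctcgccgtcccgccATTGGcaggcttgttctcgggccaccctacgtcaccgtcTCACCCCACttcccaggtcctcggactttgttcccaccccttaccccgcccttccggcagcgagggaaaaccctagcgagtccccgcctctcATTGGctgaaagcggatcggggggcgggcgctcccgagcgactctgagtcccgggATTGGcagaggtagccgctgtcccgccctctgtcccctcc
Insig1: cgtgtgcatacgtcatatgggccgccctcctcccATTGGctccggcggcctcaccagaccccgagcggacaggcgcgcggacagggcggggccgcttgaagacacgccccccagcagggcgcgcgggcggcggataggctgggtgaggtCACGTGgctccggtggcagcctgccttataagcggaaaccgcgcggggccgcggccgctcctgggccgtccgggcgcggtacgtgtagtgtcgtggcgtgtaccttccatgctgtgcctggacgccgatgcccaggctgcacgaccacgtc
Sc5d: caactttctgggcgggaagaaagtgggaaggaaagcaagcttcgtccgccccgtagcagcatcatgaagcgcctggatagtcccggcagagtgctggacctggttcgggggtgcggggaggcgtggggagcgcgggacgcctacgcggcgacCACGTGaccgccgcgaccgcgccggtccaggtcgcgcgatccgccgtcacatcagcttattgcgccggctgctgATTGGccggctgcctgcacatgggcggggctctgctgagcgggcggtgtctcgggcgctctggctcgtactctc
Fads2: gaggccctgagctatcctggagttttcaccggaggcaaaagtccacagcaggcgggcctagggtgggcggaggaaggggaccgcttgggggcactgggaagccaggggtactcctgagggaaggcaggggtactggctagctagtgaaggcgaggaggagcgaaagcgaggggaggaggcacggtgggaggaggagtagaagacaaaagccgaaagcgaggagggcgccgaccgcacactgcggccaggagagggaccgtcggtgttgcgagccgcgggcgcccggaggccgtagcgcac
In Hmgcs1, the sterol element began 137 bases before the start and lay between CCAAT matches. The E-box began 101 bases before the start in Insig1 and 98 bases before it in Sc5d.

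After 3 h of NE, none of the 34 genes passed the test. In edgeR's quasi-likelihood test, a gene was called at a Benjamini-Hochberg adjusted p under 0.05 over all 11419 genes tested. By that rule 0 members were higher, against 0.342% of all genes, and 0 were lower, against 1.23%, or 1.57% of all genes in either direction. DESeq2, which gave no adjusted p for Tm7sf2, and limma voom also called 0 of the 34. An unadjusted p under 0.05 was found for 6 members, against 17.3% of all genes. Of these 2 were higher in NE, Cyp51 and Sc5d (background 7.48%), and 4 were lower, Srebf1, Acaca, Fads1 and Fads2 (background 9.82%). A share near the background is not a result about these genes. The groups did not overlap for 7 members that were higher and 9 that were lower in NE, against 24.6% of all genes in each direction. In bulk RNA, fewer cells expressing a gene and less RNA per cell cannot be told apart.

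The differences were small and their intervals narrow. Log2 fold changes of NE against vehicle ran from -0.25 (Acaca) to 0.21 (Sc5d), with a median of -0.04 over the 34 genes and of -0.00011 over all tested genes. The 95% interval lay within a fold of 1.5 in either direction for 34 of 34 members. Tm7sf2, the least abundant member, came nearest to that limit with an interval of -0.58 to 0.43. The smallest adjusted p among members was 0.134, that of Fads2.

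**Figure D1:**
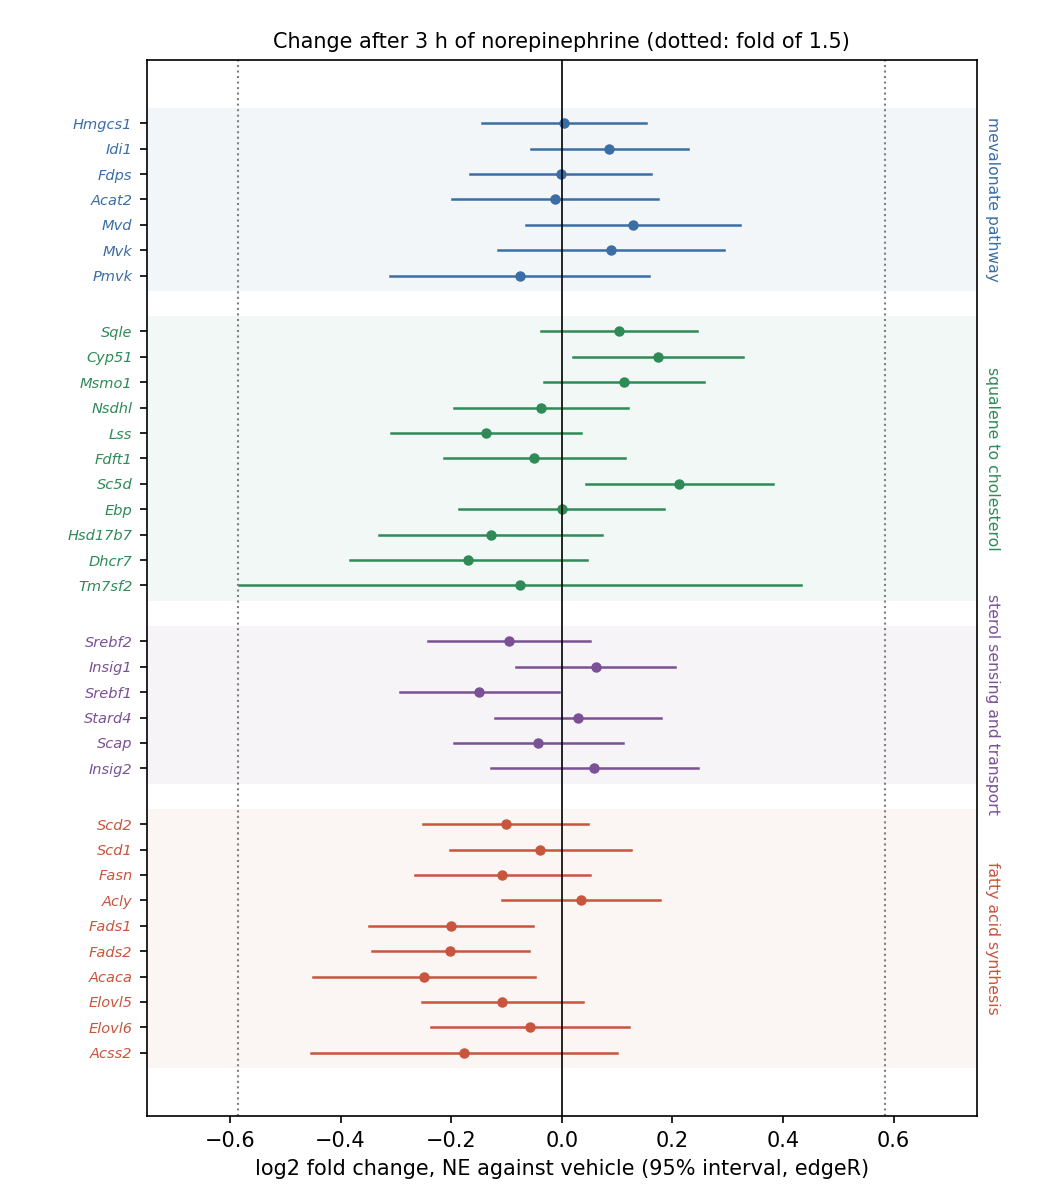
Log2 fold change of NE against vehicle (horizontal axis) for each of the 34 genes, with points for the edgeR estimate and bars for its 95% interval, grouped by role; dotted lines mark a fold of 1.5. Estimates lie between -0.25 and 0.21 and every bar lies inside the dotted lines.

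Total counts ran from 14783176 to 18491334 per library, the second NE library being the deepest. Chi-square per degree of freedom between libraries was 6.52 within vehicle and 4.53 within NE. Against the first and second NE library it was 8.08 and 13.4 for the first vehicle library and 6.14 and 11.8 for the second. No pair agreed within sampling noise. The second vehicle library thus had a lower value with the first NE library than with its own replicate. Defining Club cell products were absent or nearly so: Scgb1a1 had 2 counts over the 4 libraries, and Scgb3a1, Scgb3a2 and Cyp2f2 had 0, which allows up to 0.0471 CPM (counts scaled to library size), counting error only. Of 10 Club cell markers 4 could be tested and 2 reached a mean of 10 CPM, Aldh1a1 and Ephx1. Of 6 mesenchymal markers 6 reached it, led by Vim, and of 6 epithelial markers 3 did, Krt8, Krt18 and Krt19. The other epithelial markers had too few counts to be tested: Epcam and Cldn4 had 0 and Cdh1 had 18, of which 13 were in the first vehicle library. Adipocyte markers were scarce, with 4 counts of Adipoq, 1 of Plin1 and 0 of Lep, whereas the lipid droplet gene Plin2 had a level of 53.0 ± 6.55 CPM with vehicle and 52.7 ± 2.91 CPM with NE (SD, n = 2 each). Over all tested genes 39 were called higher and 140 lower. With total counts in place of TMM scaling the split was 12 and 120.

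Both pathways were expressed, 33 of the 34 genes having a mean of at least 10 CPM. Levels between genes are compared here as CPM per kilobase of exon length, using GENCODE M21 lengths, which need not be those of the authors' counting. Desaturase genes came first. Scd2, a stearoyl-CoA desaturase that puts the first double bond into saturated fatty acids, stood at 478 ± 8.53 CPM per kilobase in vehicle (SD, n = 2) and Scd1, its close relative, at 147.2 ± 16.7. Their ratio per kilobase, Scd2 over Scd1, was 3.58 and 2.97 with vehicle and 3.15 and 3.07 with NE. The genes lie near each other on chromosome 19, and as reads of such relatives can be split by the counting, both values are uncertain.

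Fdps, the farnesyl diphosphate synthase gene, was next at 98.2 ± 9.89 CPM per kilobase, followed by the squalene epoxidase gene Sqle at 81.7 ± 1.56 and the desaturase gene Fads1 at 71.8 ± 3.60. Behind them Hmgcs1 (68.3 ± 4.86), Msmo1 (67.8 ± 1.55), Insig1 (64.8 ± 1.79), Idi1 (64.2 ± 0.951), Fads2 (62.8 ± 1.52) and Acly (62.3 ± 2.92) lay within their spread of their neighbours in that order. At the other end were Tm7sf2, a sterol reductase gene, at 2.97 ± 0.339 CPM per kilobase, the acetyl-CoA synthetase gene Acss2 at 5.88 ± 0.851, and Hsd17b7 and Dhcr7 at 8.73 ± 0.181 and 9.24 ± 0.338. Acly, which makes acetyl-CoA from citrate, exceeded Acss2, which makes it from acetate, by a ratio per kilobase of 9.93 and 11.4 in vehicle and 13.3 and 11.5 in NE. Srebf2 exceeded Srebf1 in every library, by ratios per kilobase between 1.54 and 1.70, and Insig1 exceeded Insig2 by ratios between 3.68 and 4.21. Of the 1453 nt of Fdps exons, 1124 overlap those of Gm43738 on the same strand. Gm43738 is not among the counted identifiers, and the level of Fdps is uncertain.

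**Figure D2:**
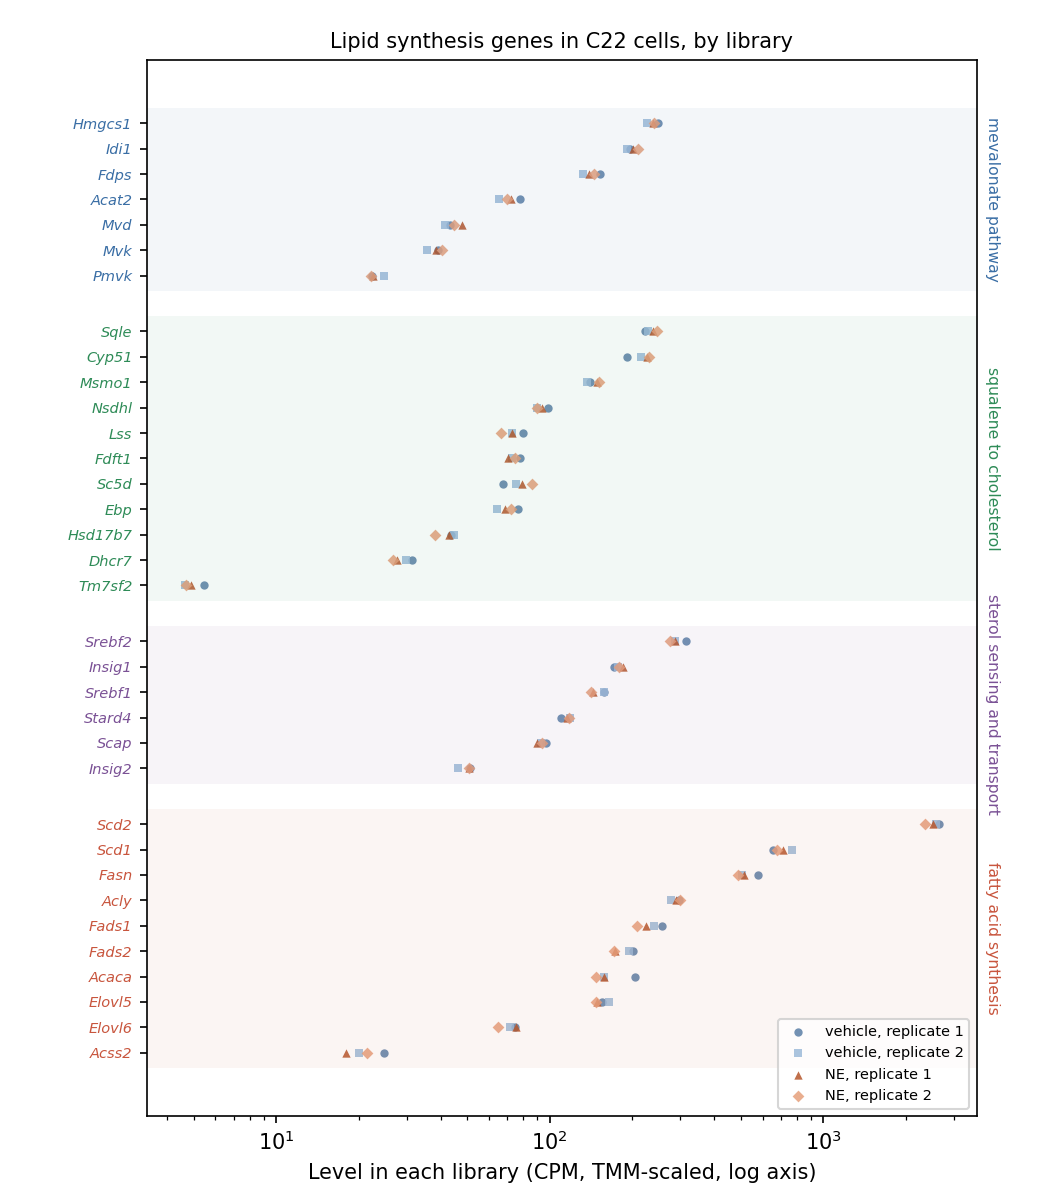
Level of each gene in each of the 4 libraries as TMM-scaled CPM on a log axis, not divided by length; circles and squares are vehicle replicates and triangles and diamonds NE replicates. Scd2 lies farthest right, at 2343 CPM or more in every library, Tm7sf2 farthest left near 5 CPM, and the 4 symbols of most genes lie almost on top of each other.

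Genes of the mevalonate pathway, from acetyl-CoA to farnesyl diphosphate, gave no call and small values in both directions. Their summed level was 782 and 717 CPM with vehicle and 760.2 and 773 CPM with NE, so the NE values lay between those of vehicle. Hmgcs1, the HMG-CoA synthase gene whose promoter is shown above, had 249.7 and 225.8 CPM in vehicle and 237.5 and 239.5 CPM in NE. Both NE libraries lay between the vehicle libraries, and its log2 fold change was 0.0045 ± 0.07 (SE, edgeR adjusted p = 0.985).

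Fdps behaved alike, with 152.8 and 132.5 CPM in vehicle and 139.7 and 145.3 CPM in NE, and so did Acat2, the cytosolic thiolase gene of the first step, with 78.0 and 65.0 CPM in vehicle and 72.0 and 70.0 CPM in NE. For both, the vehicle libraries lay outside the NE libraries on either side. Log2 fold changes were -0.0017 for Fdps and -0.01 for Acat2. Idi1, the isopentenyl diphosphate isomerase gene, had 196.3 and 192.3 CPM in vehicle and 202.0 and 210.4 CPM in NE. The NE libraries were the higher ones, without overlap, at a log2 fold change of 0.09 ± 0.07 (adjusted p = 0.543). Mvd, the decarboxylase gene, was also higher without overlap (0.13 ± 0.09, adjusted p = 0.492). The kinase genes Mvk and Pmvk overlapped between groups, with log2 fold changes of 0.09 ± 0.10 and -0.08 ± 0.11. Of the 7 genes, 4 had a positive and 3 a negative log2 fold change (median 0.0045), 0 were called by any of the 3 tools and none reached an unadjusted p under 0.05.

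The arm from squalene to cholesterol held values of either sign. DESeq2, edgeR and limma voom called 0 of its 11 genes. Of these, 4 were higher in NE without overlap between groups and 3 were lower without overlap, against 24.6% of all genes in each direction, and 2 had an unadjusted p under 0.05, against 17.3%. Sc5d, a sterol desaturase gene of the late pathway, had 67.6 and 75.1 CPM in vehicle and 79.3 and 85.9 CPM in NE. Both NE libraries were higher, with a log2 fold change of 0.21 ± 0.08 (95% interval 0.04 to 0.38, unadjusted p = 0.0170, edgeR adjusted p = 0.181). Without the first vehicle library it was 0.14 and without the second 0.29. Cyp51, the lanosterol demethylase gene, had 190.8 and 214.7 CPM in vehicle and 226.1 and 231.4 CPM in NE. Again both NE libraries were higher, at 0.17 ± 0.07 (unadjusted p = 0.0284, edgeR adjusted p = 0.226). The log2 ratio between the vehicle libraries was -0.17. The log2 fold change of Cyp51 was 0.09 without the first vehicle library and 0.26 without the second. Exons of Cyp51 overlap those of Akap9.

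Sqle, often described as a controlling step of the late pathway, had 222.3 and 228.4 CPM in vehicle and 237.6 and 246.6 CPM in NE. The methylsterol monooxygenase gene Msmo1 had 140.9 and 136.4 CPM in vehicle and 148.3 and 151.6 CPM in NE. Each was higher in both NE libraries by a small amount, 0.10 ± 0.07 for Sqle (adjusted p = 0.452) and 0.11 ± 0.07 for Msmo1 (adjusted p = 0.419) on the log2 scale. The other way lay Dhcr7, the reductase gene of the last step of a branch of the pathway, with 31.4 and 29.8 CPM in vehicle and 27.7 and 26.8 CPM in NE. The NE libraries were the lower ones, at -0.17 ± 0.10 (adjusted p = 0.412). Lss, which cyclizes oxidosqualene to lanosterol, and Hsd17b7, a sterol ketone reductase gene, were also lower without overlap, at -0.14 ± 0.08 and -0.13 ± 0.10 (adjusted p = 0.407 and 0.519).

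For Fdft1 (squalene synthase), Nsdhl (sterol dehydrogenase), Ebp (sterol isomerase) and Tm7sf2 the groups overlapped, with log2 fold changes between -0.08 and -0.00034. Exons of Fdft1 overlap those of Ctsb over 774 bases on the other strand and exons of Tm7sf2 those of Vps51, and the strand setting of the counting is not given in the sources used here, so these values are uncertain. The summed level of the 11 genes was 1034 and 1033 CPM in vehicle and 1072 and 1088 CPM in NE, a ratio of 1.04. Their median log2 fold change was -0.04.

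Genes of sterol sensing and transport had a median log2 fold change of -0.0064 over 6 genes. The 3 tools called 0 of them. An unadjusted p under 0.05 was found for 1 of the 6, near the 17.3% of all genes. That gene was Srebf1, with 157.7 and 157.9 CPM in vehicle and 143.5 and 141.1 CPM in NE. The replicates of each group lay close together and the NE libraries were lower, at -0.15 ± 0.07 (95% interval -0.29 to -0.0059, unadjusted p = 0.0423, edgeR adjusted p = 0.265). Its exons overlap those of Rai1 on the other strand. Gene-level counts do not separate the SREBP isoforms that Srebf1 encodes.

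Srebf2, whose product mainly drives the sterol genes, had 314 and 287.5 CPM in vehicle and 287.7 and 275.5 CPM in NE. The second vehicle and the first NE library had nearly the same value, and the log2 fold change was -0.10 ± 0.07 (adjusted p = 0.508). Insig1, itself a classical SREBP target, had 171.3 and 178.2 CPM in vehicle and 185.4 and 179.4 CPM in NE. The NE libraries were higher without overlap by 0.06 ± 0.07 (adjusted p = 0.692). Insig2, Scap and the sterol carrier gene Stard4 overlapped between groups, at 0.06 ± 0.09, -0.04 ± 0.07 and 0.03 ± 0.07. Thus 3 of the 6 genes were positive and 3 negative.

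Of 10 fatty acid synthesis genes 9 had a negative log2 fold change, against 50% of all tested genes, the median was -0.11, and 5 were lower without overlap while 0 were higher, against 24.6% of all genes in each direction. None was called: the count was 0 of 10 with edgeR, with limma voom and with DESeq2, and 3 had an unadjusted p under 0.05, all lower, against 9.82% of all genes. Their summed level was 5088 and 4972 CPM in vehicle and 4830 and 4567 CPM in NE, a ratio of 0.934, with Scd2 as the largest contributor. The groups of that sum did not overlap. Its lowest value belonged to the deepest library. Mesenchymal markers lay the same way: 5 of 6 had a negative log2 fold change (median -0.14), 2 of them, Col1a1 at -0.18 and Col3a1 at -0.19, at an unadjusted p under 0.05, with 0 called. Their summed level was 7965 and 7390.5 CPM with vehicle and 7300.5 and 7052 CPM with NE. The share of mitochondrial counts was also lower with NE, 3.73% and 3.60% against 3.88% and 4.24% with vehicle. The part of either in these values was not tested.

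Fads2, which starts the desaturation of polyunsaturated fatty acids, had 201.2 and 194.5 CPM in vehicle and 172.8 and 171.3 CPM in NE. Fads1, which acts later in the same chain, had 257.6 and 239.9 CPM in vehicle and 224.3 and 208.9 CPM in NE. Both genes were lower in both NE libraries, by nearly equal amounts. The log2 fold changes were -0.20 ± 0.07 for Fads2 (95% interval -0.34 to -0.06, unadjusted p = 0.00819, edgeR adjusted p = 0.134) and -0.20 ± 0.07 for Fads1 (-0.35 to -0.05, unadjusted p = 0.0115, adjusted p = 0.156). They lie next to each other on chromosome 19, with 0 protein-coding genes between them. Elovl5, the elongase gene that extends polyunsaturated chains, had 155.0 and 164.1 CPM in vehicle and 148.3 and 147.9 CPM in NE. It too was lower without overlap, by a smaller amount (-0.11 ± 0.07, adjusted p = 0.450).

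Acaca, the acetyl-CoA carboxylase gene that commits carbon to fatty acids, had 204.1 and 157.6 CPM in vehicle and 157.4 and 147.0 CPM in NE. The first vehicle library stood apart, and the second vehicle library nearly equalled the first NE library. The log2 fold change was -0.25 ± 0.10 (95% interval -0.45 to -0.05, unadjusted p = 0.0182, edgeR adjusted p = 0.184). Without the first vehicle library it was -0.05, and without the second -0.42. The log2 ratio between the vehicle libraries was 0.37, but such a ratio of single libraries varies more than a fold change between group averages.

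Fasn, the fatty acid synthase gene, had 578.0 and 502.2 CPM in vehicle and 514.3 and 488.4 CPM in NE. The groups overlapped, with the first vehicle library again the highest (-0.11 ± 0.07, adjusted p = 0.485). Its value was -0.0024 without the first vehicle library and -0.20 without the second. Scd2 had 2642 and 2576 CPM in vehicle and 2520.4 and 2343 CPM in NE, lower without overlap by a small amount (-0.10 ± 0.07, adjusted p = 0.485). Scd1 had 654.4 and 768.4 CPM in vehicle and 709.5 and 675.6 CPM in NE, both NE libraries lying between those of vehicle (-0.04 ± 0.08, adjusted p = 0.843). Acly, the member of this group with a positive value, stood at 0.03 ± 0.07, and Elovl6, which elongates saturated chains, at -0.06 ± 0.08. Acss2, at 24.7 and 20.1 CPM in vehicle and 18.1 and 21.5 CPM in NE, overlapped between groups (-0.18 ± 0.13, adjusted p = 0.517), and its exons overlap those of Gss.

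Transcript length and single libraries moved with these values. Fatty acid synthesis genes had a median exon length of 4721 nt, against 3380 nt over all tested genes and 1996 nt for the mevalonate genes. Among all genes with an exon length, sorted by that length into 10 bins, the median log2 fold change ran from 0.11 in the shortest bin to -0.09 in the longest. With each library's length trend removed, the median of the fatty acid synthesis genes was -0.09, that of the mevalonate genes 0.0095 and that for the arm from squalene to cholesterol -0.05. In that setting Fasn, at 10050 nt the longest member, stood at -0.01 and Acaca at -0.16, while Fads1 and Fads2 were little altered at -0.20 and -0.21.

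**Figure D3:**
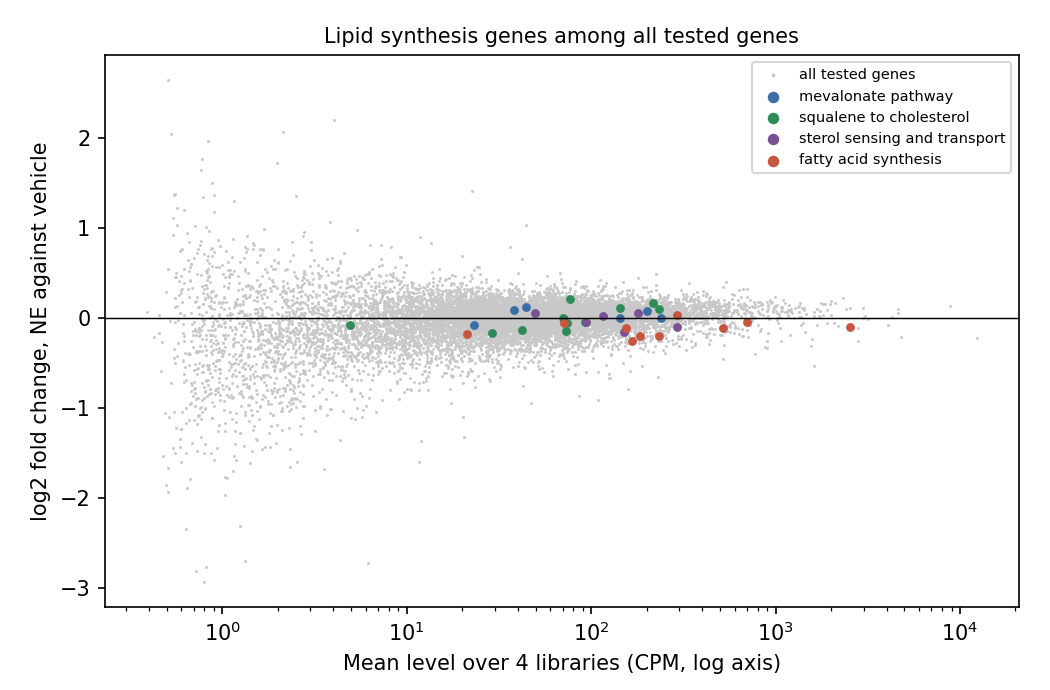
Log2 fold change of NE against vehicle (vertical axis) against the mean CPM over the 4 libraries (log axis) for all 11419 tested genes (grey) and the 34 lipid synthesis genes (coloured by role). The coloured points lie between -0.25 and 0.21, inside the grey cloud, with fatty acid synthesis genes mostly below 0.

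Vehicle libraries were also compared with each other, gene by gene. A ratio of single libraries varies more than a fold change between group averages, even without an effect of NE. The count that follows therefore cannot show whether replicates differed as much as the groups did. That count was made for the vehicle libraries only. For 19 of the 34 genes the log2 ratio between the vehicle libraries was larger in size than the log2 fold change of NE against vehicle, against 5658 of 11419 tested genes. The first vehicle library was the higher one for 24 of 34 members, against 5671 of 11419 tested genes. Between the NE libraries, the first was the higher one for 19 of 34 members, against 5710 of 11419 tested genes. Without the second vehicle library, log2 fold changes were 0.26 for Cyp51, -0.42 for Acaca and -0.25 for Fads1, the members called in that setting. Without the first they were 0.09, -0.05 and -0.15. Such a fit takes the lone library of a group to vary as the other group does. Calls over all genes also moved widely with a library left out. The median over the 34 genes was -0.00071 without the first and -0.09 without the second vehicle library, and that of the fatty acid synthesis genes ranged from -0.16 to -0.07 with a library left out. Fads2 kept a value between -0.23 and -0.18 in all 4 of these settings and Srebf1 between -0.16 and -0.14.

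**Figure D4:**
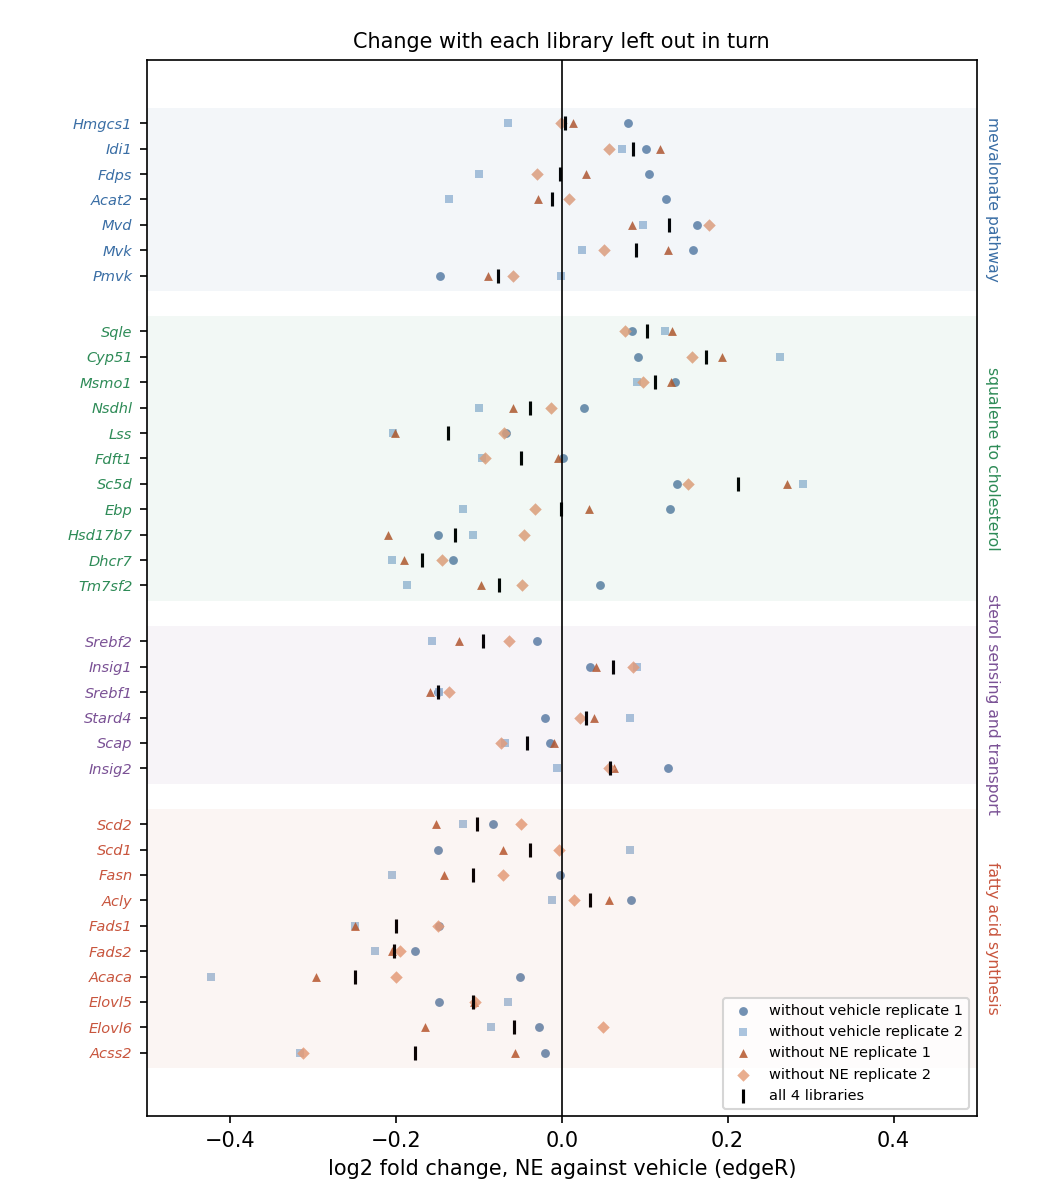
Log2 fold change of NE against vehicle (horizontal axis) for each gene with each library left out in turn (coloured symbols) and with all 4 libraries (black bars). Symbols of Srebf1 and Fads2 lie close together, whereas those of Acaca spread from -0.42 to -0.05 with the choice of vehicle library.

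Other genes around the same pathways gave 1 call. Of 69 such genes, in 4 lists, 62 could be tested. Of these 0 were called higher, against 0.342% of all genes, and 1 was called lower, against 1.23%. An unadjusted p under 0.05 was found for 11, against 17.3% of all genes. Counts near these shares are not a result about the lists. DESeq2 called 0 and gave no adjusted p for 15, and limma voom called 1. The gene called was Rnf145, a ubiquitin ligase of the endoplasmic reticulum linked to the turnover of sterol synthesis proteins, with 137.1 and 120.9 CPM in vehicle and 103.7 and 104.1 CPM in NE. Both NE libraries were lower, at -0.31 ± 0.08 (unadjusted p = 7.74e-04, edgeR adjusted p = 0.0496). Limma voom also called it (adjusted p = 0.0463) and DESeq2 did not (adjusted p = 0.0801). The edgeR call was kept with total counts (adjusted p = 0.0490), no low-count filter (0.0333), a stricter filter (0.0469) and the replicate block (0.0346). It was lost with DESeq2 size factors (adjusted p = 0.0542) and with the length trend removed (-0.25, adjusted p = 0.132). With a library left out, it was kept without the second vehicle library (-0.40). It was lost without the first vehicle library (-0.22) and without either NE library.

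In the same list of 16 genes of SREBP processing and sterol-regulated turnover, all tested, the next by p were Marchf6, a ubiquitin ligase that degrades squalene epoxidase (-0.16 ± 0.07, adjusted p = 0.249), the NF-Y subunit gene Nfya (-0.17 ± 0.08, adjusted p = 0.286) and Paqr3, a Golgi anchor of SCAP (0.56 ± 0.31, adjusted p = 0.373). Paqr3 was at 4.70 and 2.15 CPM in vehicle and 4.87 and 5.24 CPM in NE. The second vehicle library thus set its log2 fold change, which was 1.23 without the first vehicle library. Exons of Paqr3 overlap those of Bmp2k. The median of the list was 0.02.

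Of 13 genes of liver X receptor signalling, oxysterols and cholesterol esters, 10 could be tested and the 3 tools called 0. An unadjusted p under 0.05 was found for 2, against 17.3% of all genes. Abca1, the cholesterol exporter and a target of these receptors, had 13.9 and 17.4 CPM in vehicle and 11.5 and 8.36 CPM in NE. Both NE libraries were lower, at -0.66 ± 0.18 (adjusted p = 0.0660). Without the first vehicle library it was -0.81. Keeping all genes with a count gave Abca1 an edgeR adjusted p of 0.0315, and DESeq2 gave it none. Osbpl2, an oxysterol-binding protein gene, stood at 0.25 ± 0.09 (adjusted p = 0.149), the acyltransferase gene Lpcat3 at -0.10 ± 0.07 and Osbp at 0.09 ± 0.07. Ch25h and Cyp7b1, which make and clear oxysterols, had 0 counts, and the exporter gene Abcg1 had 3.

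Among 10 genes of isoprenoid side branches, all tested, 0 were called by the 3 tools. Against 17.3% of all genes, 2 had an unadjusted p under 0.05. These were Icmt, which methylates prenylated proteins (-0.18 ± 0.08, adjusted p = 0.252), and Nus1, of dolichol synthesis (0.16 ± 0.08, adjusted p = 0.278). Pdss2, of coenzyme Q synthesis, stood at 0.29 ± 0.17 and the protein prenylation gene Pggt1b at -0.10 ± 0.08. Of 30 genes of fatty acid activation, elongation and ester synthesis, 26 could be tested, 0 were called by any tool and 4 had an unadjusted p under 0.05. Acsl4, an acyl-CoA synthetase gene for polyunsaturated fatty acids, had 159.4 and 233.1 CPM in vehicle and 246.4 and 261.6 CPM in NE. The first vehicle library stood far below the other 3, so the value of 0.37 ± 0.12 (adjusted p = 0.109) became 0.67 without the second vehicle library. With all genes with a count kept, its adjusted p was 0.0469.

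Tecr, the enoyl reductase gene of the elongation cycle, had 112.4 and 108.8 CPM in vehicle and 95.8 and 96.2 CPM in NE. Both NE libraries were lower (-0.20 ± 0.07, adjusted p = 0.144). The phosphatidate phosphatase gene Lpin1 stood at -0.46 ± 0.16 (adjusted p = 0.151), or -0.63 without the second vehicle library. Mcat, of mitochondrial fatty acid synthesis, stood at 0.29 ± 0.12 (adjusted p = 0.235). Elovl3, Mlxipl and Thrsp, which are typical of liver and fat, had 0, 0 and 1 counts. The median log2 fold change of the 26 tested genes was -0.0096.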

How the data were processed

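Libraries were prepared from RNeasy-purified RNA with a NEBNext Ultra II kit and read on a NovaSeq X, per the labels' protocols. The authors deposited whole-number counts for each gene, not normalized. The submitters' processing notes name the build GRCm39 (mm39). Not given in the sources used here are the aligner, counter, annotation and strand setting, so reads of overlapping or near-identical genes may be split or shared. Overlaps were stated for 5 of the 34 genes, whose exons overlap those of another counted gene, and for Fdps.

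The test was that of edgeR 4.0.16 under R 4.3.3 (filterByExpr with minimum count 10 and total 15, TMM scaling, quasi-likelihood test, group as the only term, 2-sided). P-values were adjusted over all 11419 genes kept. The SE was derived from the log2 fold change and its F value, and 95% intervals use the moderated t distribution. CPM use TMM-scaled totals of the kept genes. Exon lengths and overlaps came from GENCODE M21 (GRCm38), promoters from RefSeq. The procedure was also run on simulated counts with the same dispersion for every gene. That run checked only that large changes were called and unchanged genes were not, so it does not bear on differences as small as these. Groups came from the titles.

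The members and lists were chosen with earlier results of these data known. Named were all 34 members and, of each list of other pathway genes, called genes and up to 4 with the smallest p. Alternatives were DESeq2 1.42.0 size factors or test, total counts, limma 3.58.1 voom, other filters, a replicate block, length trend removal and each library left out.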

Additional observations from a re-analysis of the deposited data

How the results depend on the processing

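Of 408 values of the 34 genes under 12 alternatives, 382 kept their direction and side of the threshold and 23 took the opposite sign, all of genes whose own log2 fold change was at most 0.08 in size. By setting, opposite signs came with total counts (Hmgcs1 -0.014), no low-count filter (Fdps 0.0035, Ebp 0.0049), limma voom (Fdps 0.0019, Ebp 0.0054) and the replicate block (Fdps 0.0015, Ebp 0.0043). With each library left out, values ran from -0.136 to 0.126 for Acat2, -0.0998 to 0.105 for Fdps, -0.097 to 0.00093 for Fdft1, -0.186 to 0.046 for Tm7sf2 and -0.099 to 0.027 for Nsdhl. They ran from -0.119 to 0.131 for Ebp, -0.020 to 0.082 for Stard4, -0.065 to 0.079 for Hmgcs1, -0.0062 to 0.128 for Insig2, -0.011 to 0.083 for Acly, -0.150 to 0.083 for Scd1 and -0.165 to 0.049 for Elovl6. Members called ranged from 0 to 1 higher and 0 to 2 lower with a library left out, and were 0 under the other alternatives. Other pathway genes called lower were 0 with DESeq2 size factors, the DESeq2 test or the length trend removed, 2 with no filter or the replicate block, and 0 to 2 with a library left out. Those called higher were 1 with no filter or the replicate block, and 0 to 1 with a library left out. Over all genes, calls were 12 higher with total counts, 84 higher and 225 lower with no filter, 24 and 51 with the DESeq2 test, 84 and 236 with the replicate block, 4 and 25 with the length trend removed, and 2 to 312 and 2 to 428 with a library left out. The cause was not tested. Same-numbered libraries did not deviate together (correlation -0.06 across genes), so the number is not taken to pair them. With 2 libraries per group, small differences could not be detected. The intervals given are not adjusted for the number of genes tested and do not mark the detection limit. Fads2, with an interval of -0.34 to -0.06, was not called (edgeR adjusted p = 0.134), so differences somewhat larger than the intervals could also be missed.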
